A study of Mus musculus with 5 samples.

Results

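The mitochondrial ribosomal protein genes are the nuclear genes whose products build the ribosome inside mitochondria. They were taken as all protein-coding genes whose symbol starts with Mrpl or Mrps followed by a digit. This gave 78 of the 27843 genes in the count table. Membership by symbol used no measured value, but the family was chosen with earlier results of these data known. By the role known for each protein, 26 belong to the small subunit and 49 to the large subunit. Mrps18a and Mrps30 carry small-subunit symbols but their proteins sit in the large subunit. The product of Mrps36 is a part of the 2-oxoglutarate dehydrogenase complex and is not counted as a ribosomal subunit here. Of the 78 genes, 77 had enough reads to be tested, and Mrpl53 did not.

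Mitochondria keep a small genome of their own, and the few proteins it encodes, all of them parts of the respiratory chain and the ATP synthase, are made on these ribosomes. The ribosomal RNAs come from the mitochondrial genome, whereas every protein of the particle is encoded in the nucleus, made in the cytosol and imported. Some of these proteins have bacterial counterparts and others are found only in mitochondria.

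The mRNA came from lymphatic endothelial cells (LECs), which line lymph vessels and, inside a lymph node, the sinuses that lymph flows through. The cells were sorted from lymph nodes of 8-week-old C57BL/6 mice as CD45-, TER119-, CD31+ and podoplanin+. The 3 control libraries came from Rankl flox/flox mice, titled WT in the labels although they carry the floxed alleles, and the 2 knockout libraries came from Ccl19 Cre Rankl flox/flox mice. All 5 libraries therefore share Rankl flox/flox. The Ccl19 promoter drives Cre in Ccl19-expressing stromal cells, so the deletion is aimed at neighbours of the sorted cells, and the design asks how LEC transcripts differ when stroma lacks the cytokine RANKL. The labels call the mice littermates and give no number of animals per library, so p-values measure the spread between these libraries, which may be partly technical.

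Library totals were 52839375 to 70171307 counts, and the mitochondrial ribosomal protein genes together took 63583 to 89021 of them, with a median of 645 to 929.5 reads per gene and library. Levels are given as CPM, counts scaled to library size, of which 1 stood for 52.0 to 71.0 reads. Tnfsf11, which encodes RANKL, had 27, 13 and 9 reads in the controls and 9 and 0 in the knockouts. The 9 LEC markers, among them Prox1, Flt4 and Lyve1, had reads in every library, and their summed level was 9582 to 10725 CPM in controls and 10070 to 12012 CPM in knockouts. Within that sum Ccl21a and Mmrn1 were called higher (log2 fold change 3.79 and 1.56, edgeR adjusted p = 0.020 and 0.022) and Prox1 lower (-0.75, adjusted p = 0.019), while Lyve1 was at -0.57 with both knockouts below all controls and did not pass. Markers of other cells also moved between the groups. The summed level of 11 blood endothelial markers was 2558 to 2895 CPM in controls and 2973 and 3881 CPM in knockouts. Most of it was Plvap, at 2455 to 2808 CPM in controls and 2786 and 3627 CPM in knockouts. Plvap was not called (log2 fold change 0.25, edgeR adjusted p = 0.32). The 6 called higher were Emcn, Gpihbp1, Cd34, Aqp7, Ly6c1 and Sox17, with log2 fold changes from 1.15 (Emcn) to 2.94 (Sox17). Nostrin was the 1 called lower (-0.89), and Apln was at 0 in knockout 2. The sum of 9 fibroblast markers was 322 to 472 CPM in controls, with knockouts 1 and 2 at 1060 and 466 CPM. The 7 macrophage markers summed to 14.7 to 20.2 CPM in controls and 11.9 to 12.8 CPM in knockouts, with Mpeg1 and Csf1r called lower. Adgre1, with 0 reads in all controls and only 15 and 20 in the knockouts, was called higher with edgeR. DESeq2 called 0 of these markers higher and 2 lower. The 9 lymphocyte markers summed to 12.0 to 20.6 CPM in controls and 23.7 to 31.9 CPM in knockouts, with Il7r called lower. The 8 markers of dividing cells summed to 125 to 132 CPM in controls and 117 to 131 CPM in knockouts, and none was called with edgeR or limma-voom, while 1 was higher and 3 were lower at an unadjusted p under 0.05, as with DESeq2. Of these markers Pcna had both knockouts above all controls, and Mki67, Top2a and Mcm2 had both below. The part of these cell mixtures in the values below was not tested. In such bulk samples fewer cells of a type and less RNA per cell cannot be told apart.

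Most mitochondrial ribosomal protein genes lay slightly higher in the knockout libraries, by less than the test could resolve gene by gene. The log2 fold change (knockout minus control) was above 0 in 61 of 77 tested genes, or 79.2%, against 49.9% of all 15874 tested genes. Its median was 0.15, against -0.0015 over all tested genes, and it ran from -0.12 for Mrpl30 to 0.62 for Mrpl46. Only 2 genes, Mrpl12 and Mrpl46, passed the threshold (edgeR quasi-likelihood test, Benjamini-Hochberg adjusted p under 0.05 over all tested genes), and both were higher. That share of the 77 is to be read against 3.25% of all tested genes called higher. None was called lower, against 3.99% of all tested genes, and at an unadjusted p under 0.05 the counts were 12 higher and 0 lower, against backgrounds of 12.8% and 13.6%. limma-voom called the same number, 2 higher and 0 lower, and DESeq2 called 7 higher and 0 lower, against 7.9% and 9.24% of all tested genes.

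The individual library values, from which the estimates above were made, showed the same shift and are not separate support for it. In 32 genes both knockout libraries lay above all 3 controls, in 0 genes both lay below, and in 45 the groups overlapped. Over all tested genes 22.9% had both knockouts above and 22.5% both below. The changes were small and alike: 75 of 77 genes changed by less than 0.5 on the log2 scale, against 71.4% of all tested genes, and 0 changed by 1 or more, against 10.5% of all tested genes. The SD of the 77 log2 fold changes was 0.16, close in size to their median standard error (SE) of 0.13. Over all tested genes the SD was 0.74 and the median SE 0.18. The lowest control mean was 3.48 CPM among the 77 and 0 CPM among all tested genes. These shares describe the list beside the rest of the table, were not matched for level and carry no test.

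**Figure D1:**
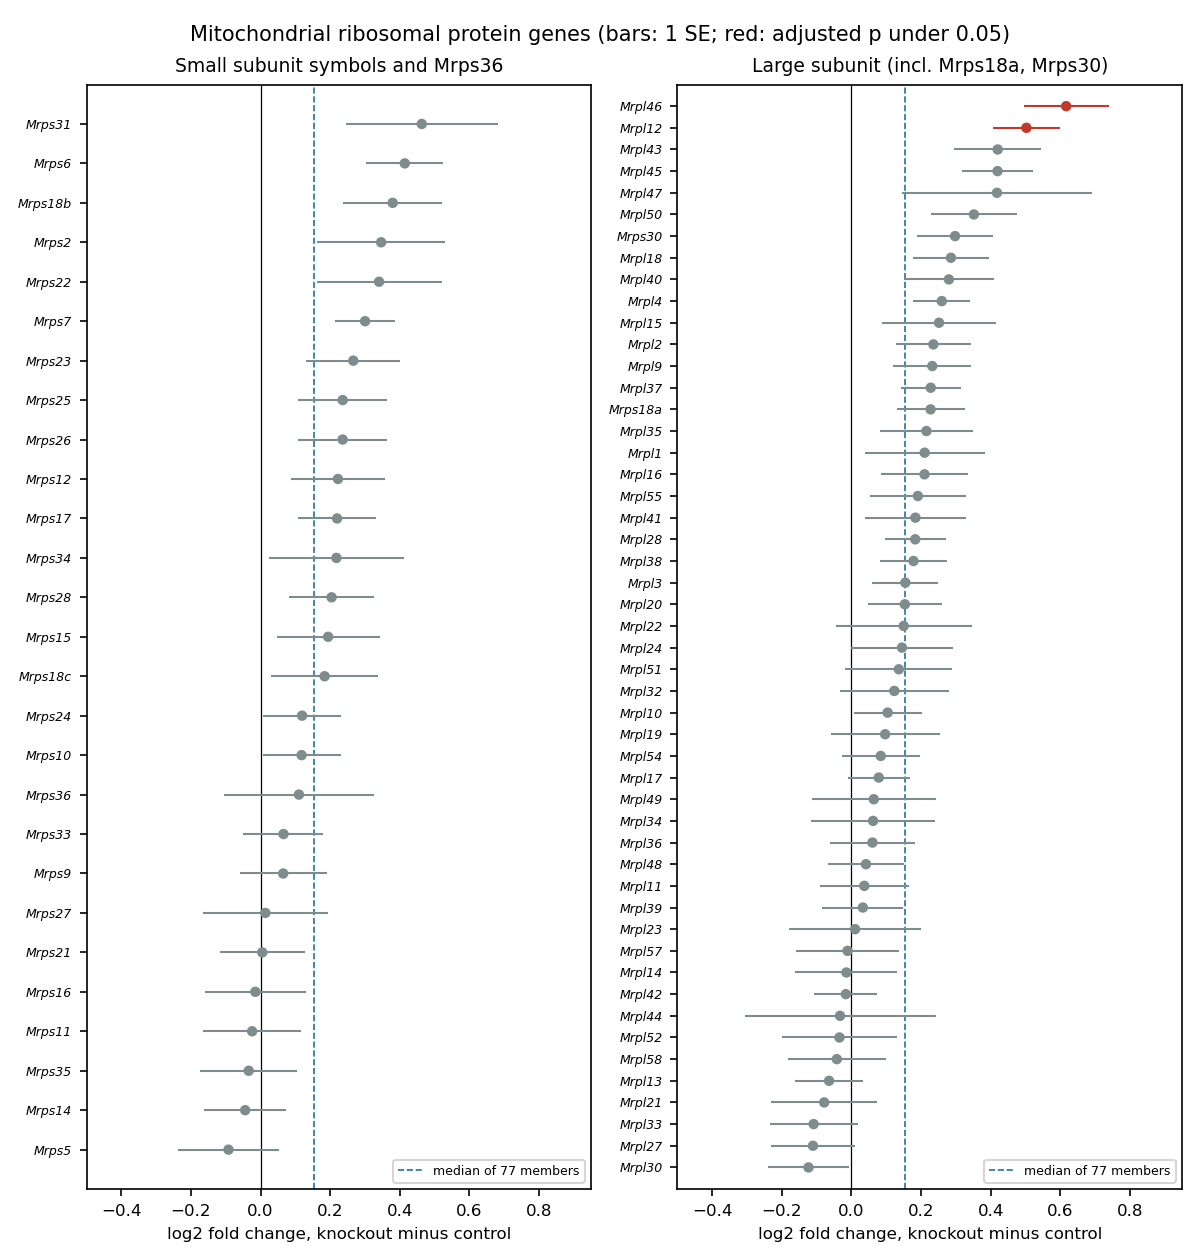
Log2 fold change (knockout minus control, x axis) of each of the 77 tested genes, ordered within the small subunit with Mrps36 (left) and the large subunit (right). Points are edgeR estimates, bars are 1 SE, red marks an adjusted p under 0.05, and the dashed line is the median of 0.15; only Mrpl46 and Mrpl12 are red, and no point lies below -0.12.

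Summed over all 78 genes, the transcripts reached 1253, 1204 and 1223 CPM in the controls (1227 ± 24.5, SD, n = 3) and 1381 and 1382 CPM in the knockouts. Both knockout sums lay above every control sum, and the mean was 12.6% higher. In the same knockouts 1 and 2 the fibroblast marker sums were 1060 and 466 CPM. The blood endothelial sums, most of them Plvap, were 2973 and 3881 CPM. The part of these other cells in the 12.6% difference was not tested.

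The small-subunit genes and the large-subunit genes moved by similar amounts. Of 26 small-subunit genes, 21 had a log2 fold change above 0, the median was 0.20, and 0 passed the test (3 higher and 0 lower at an unadjusted p under 0.05, 2 higher with DESeq2 and 0 with limma-voom). Their summed level was 379, 372 and 369 CPM in controls and 417 and 442 CPM in knockouts. Of the 50 tested large-subunit genes, Mrps18a and Mrps30 included, 39 were above 0, the median was 0.15 and 2 passed. Their sum was 870, 830 and 852 CPM in controls and 960 and 936 CPM in knockouts. The ratio of the small-subunit to the large-subunit sum was 0.435, 0.448 and 0.433 in controls and 0.434 and 0.472 in knockouts, so on this ratio the groups overlapped.

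Mrpl12 and Mrpl46 were the 2 genes that rose, in the fit without a correction for exon length. Mrpl12, whose protein is the stalk protein of the large subunit (chr11:120484613-120489065, mm10), stood at 17.4, 17.8 and 18.1 CPM in the controls and at 24.9 and 25.5 CPM in the knockouts. The controls lay within 1 CPM of each other, and both knockouts lay well above them. This was a 1.42-fold difference in mean CPM and a log2 fold change of 0.50 ± 0.10 (SE; edgeR adjusted p = 0.032). Mrpl46, a large-subunit protein without a bacterial counterpart (chr7:78775236-78783531), stood at 10.8, 12.1 and 10.4 CPM in the controls and at 17.0 and 17.0 CPM in the knockouts. Its groups were also apart, with a 1.53-fold difference in mean CPM and a log2 fold change of 0.62 ± 0.12 (edgeR adjusted p = 0.035). Neither gene passed when 1 of the 3 control libraries was left out: the edgeR adjusted p for Mrpl12 was 0.093, 0.11 and 0.13 without control 1, 2 and 3, and for Mrpl46 it was 0.10, 0.080 and 0.14. Both passed without either knockout library, with adjusted p of 0.040 and 0.044 for Mrpl12 and of 0.046 and 0.046 for Mrpl46, in fits that called 3.67% and 4.76% of all tested genes higher. With the exon length and GC offset described below neither passed (edgeR adjusted p = 0.10 and 0.076).

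The next genes by p-value did not pass in the same fit. Mrpl45, whose protein helps to hold the ribosome at the inner mitochondrial membrane, stood at 20.1, 19.5 and 17.9 CPM in controls and at 25.5 and 25.8 CPM in knockouts, a log2 fold change of 0.42 ± 0.10 (edgeR adjusted p = 0.056). Mrps6, a small-subunit protein with a bacterial counterpart, stood at 60.6, 61.0 and 67.6 CPM in controls and at 76.2 and 91.9 CPM in knockouts. Its log2 fold change was 0.41 ± 0.11 (edgeR adjusted p = 0.069), and of its knockout libraries the second was the higher. Without knockout 1 its log2 fold change was 0.54 (adjusted p = 0.027), and without knockout 2 it was 0.27 (adjusted p = 0.16). Mrps6 also passed when no filter on low counts was used, where 2.5% of all tested genes were called higher, and Mrps6 and Mrpl45 passed when only genes with at least 10 CPM in 2 libraries were tested, where 7.61% were. Mrps7, a small-subunit protein that binds the ribosomal RNA of the subunit head, was measured at 38.4, 37.0 and 38.4 CPM in controls and at 44.9 and 48.6 CPM in knockouts (0.30 ± 0.09, edgeR adjusted p = 0.081). Mrpl43, a large-subunit protein, was measured at 11.2, 9.83 and 10.5 CPM in controls and at 14.7 and 13.5 CPM in knockouts (0.42 ± 0.13, edgeR adjusted p = 0.090). In each of these 4 genes both knockouts lay above all controls. They and Mrpl4 are the 5 genes that DESeq2 called in addition; Mrps7 and Mrpl4, at 0.26 ± 0.08, were named after their values were seen. Mrps31 and Mrpl47 had estimates as large, 0.46 ± 0.22 and 0.42 ± 0.27, at lower levels and with wider errors (edgeR adjusted p = 0.23 and 0.38).

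**Figure D2:**
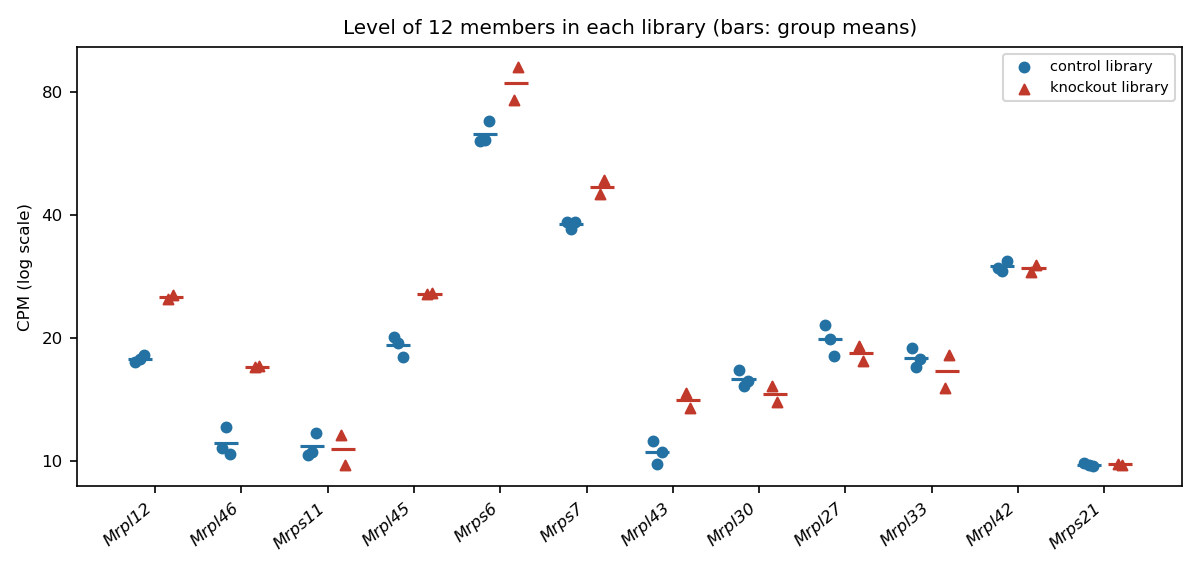
CPM (y axis, log scale) of 12 mitochondrial ribosomal protein genes in each library, with blue circles for the 3 controls, red triangles for the 2 knockouts and short bars for the group means. The triangles lie above the circles for Mrpl12, Mrpl46, Mrpl45, Mrps6, Mrps7 and Mrpl43, and the groups overlap for Mrps11, Mrpl27, Mrpl33, Mrpl42 and Mrps21; for Mrpl30 the knockout values are 15.2 and 13.9 CPM against 15.2 to 16.7 CPM in controls.

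At the other end, 16 genes had a log2 fold change below 0 and none of them passed the test. The lowest was Mrpl30, a large-subunit protein, with 16.7, 15.2 and 15.7 CPM in controls and 15.2 and 13.9 CPM in knockouts (-0.12 ± 0.12, edgeR adjusted p = 0.55). Mrpl27, whose bacterial counterpart lies next to the peptidyl transferase centre, had 21.5, 19.9 and 18.1 CPM in controls and 19.2 and 17.6 CPM in knockouts (-0.11 ± 0.12). Mrpl33, another large-subunit protein, had 18.9, 17.0 and 17.8 CPM in controls and 15.1 and 18.1 CPM in knockouts (-0.11 ± 0.13). The values of these genes overlapped or nearly touched between the groups, and each estimate was no larger than about 1 SE. Mrps5, Mrpl21 and Mrpl13 followed at -0.09, -0.08 and -0.06, all within 1 SE of 0. The steadiest gene by eye was Mrps21, named after its values were seen, at 9.87, 9.77 and 9.72 CPM in controls and 9.86 and 9.78 CPM in knockouts.

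Most genes picked for the function of their products had estimates above 0, and those below 0 lay closer to it than their SE. Of this set, Mrpl12 is given above and Mrpl44 below. Among the proteins at the working centres of the ribosome, Mrps12, the counterpart of the bacterial decoding-site protein, had a log2 fold change of 0.22 ± 0.13, Mrpl3, whose bacterial counterpart reaches towards the peptidyl transferase centre, one of 0.15 ± 0.09 and Mrpl11, at the base of the stalk, one of 0.04 ± 0.13. Mrpl58, a peptidyl-tRNA hydrolase that was taken into the large subunit, was at -0.04 ± 0.14, and Mrps16, a small-subunit protein with a bacterial counterpart, was at -0.01 ± 0.15. Mrps2, a small-subunit protein with a bacterial counterpart, and Mrps22, one found only in mitochondria, were at 0.35 ± 0.18 and 0.34 ± 0.18. Apart from Mrpl12, none of these passed the test, with edgeR adjusted p from 0.28 to 0.96. The 3 paralogs of the Mrps18 family, of which Mrps18a is in the large subunit and Mrps18b and Mrps18c are in the small one, were at 0.23 ± 0.10, 0.38 ± 0.14 and 0.18 ± 0.15, and in all 3 both knockouts lay above the controls. Mrps30 was at 0.30 ± 0.11 and likewise had both knockouts, at 18.7 and 17.8 CPM, above the controls at 14.04 to 15.3 CPM. Mrps36, the 2-oxoglutarate dehydrogenase component, was at 0.11 ± 0.21 with overlapping groups.

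Levels differed far more between genes than between genotypes. Counts were divided by the length of the principal coding transcript, since longer transcripts yield more reads, and the mean over controls is given per kilobase. The highest level was that of Mrps6 at 74.5 CPM per kilobase, followed by Mrpl42 at 44.9 and Mrpl33 at 37.5, and the median was 8.98. This order depends on the length used: per kilobase of all annotated exons Mrps6 was again the highest, at 41.1 CPM, but Mrpl42, at 8.12, ranked 24 and Mrpl33, at 2.44, ranked 62. By transcript length the lowest were Mrpl53 at 0.074, Mrpl47 at 1.04 and Mrpl19 at 1.44 CPM per kilobase. These genes share 87.97%, 24.17% and 36% of their exon bases with other genes, and the part of this sharing in their low levels was not tested. Mrpl42, with 29.7, 29.2 and 30.8 CPM in controls and 29.0 and 30.2 CPM in knockouts, had a log2 fold change of -0.02 ± 0.09. Over the 3 controls the coefficient of variation of a gene's CPM had a median of 6.26%.

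For some genes the counts may be split with another gene or hold its reads, because these kits do not mark the strand. Exon bases were shared with another annotated gene in 33 of the 78 genes, and in 10 of them the share was 20% or more. Mrpl53, with 3, 7 and 0 reads in controls and 1 and 4 in knockouts, shares 87.97% of its exon bases with Gm42688 and Ccdc142os. Mrps34 shares 77.76% with Mapk8ip3 and Nme3 and stood at 0.22 ± 0.19. Mrpl43 shares 33.36% with Twnk, the mitochondrial DNA helicase on the opposite strand, whose own log2 fold change was 0.33 ± 0.15. Mrpl12 shares 13.05% with Gm16755, which had 0.0700 CPM in controls and 0.149 CPM in knockouts, and Mrps6 shares 19.9% with Slc5a3 on the same strand, at -0.30 ± 0.13. Mrpl44, an RNase III-like large-subunit protein, shares 7.66% with Wdfy1 on the opposite strand, which fell from 38.9 to 6.59 CPM (-2.56 ± 0.24, edgeR adjusted p = 0.0098). Mrpl44 itself had 6.43, 4.34 and 4.06 CPM in controls and 5.70 and 3.99 CPM in knockouts (-0.03 ± 0.27). The 45 genes that share no exon base had a median log2 fold change of 0.18, with 37 above 0 and 0 called (4 higher and 0 lower at an unadjusted p under 0.05, 2 higher with DESeq2, 0 with limma-voom). Both genes that passed the test are among those that share exon bases. A separate search of the annotated transcripts found 53 genes with at least one 50-base stretch that also occurs in a transcript of another gene, and the 25 tested genes with none had a median of 0.19. With the exon length and GC offset described below, the medians of these groups of 45 and 25 genes were 0.065 and 0.056. That offset gave 0.078 over all 77 genes and 0.030 over all tested genes.

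Exon length was looked at next, because short genes lay higher in the knockout libraries across the whole table. Annotated exon length, the total of all exon bases of a gene, had a median of 2533 bases in the 77 tested genes against 4117 bases over all tested genes, and 56 of the 77 were shorter than the median tested gene. Over 15821 tested genes with a known length the Spearman correlation of log2 fold change with exon length was -0.21. Within the 77 genes it was -0.07. Both are descriptions across genes measured in the same 5 libraries. When tested genes were cut by exon length into 5 bins of nearly equal size, the median log2 fold change fell from 0.12 in the shortest bin through 0.09, 0.01 and -0.06 to -0.16 in the longest. The mitochondrial ribosomal genes in those bins, 36, 16, 10, 8 and 7 in number, had medians of 0.18, 0.09, 0.22, 0.14 and 0.04. They lay above the median of their bin in all but the second, where the values were 0.09 and 0.09.

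An offset that removes, library by library, the dependence of counts on exon length and GC content made the difference smaller. With it the median log2 fold change of the 77 genes was 0.08 and that of all tested genes 0.03, and 59 of 77 were above 0 against 53.2% of all tested genes. No mitochondrial ribosomal gene passed in either direction, while 2.58% of all tested genes were called higher and 1.9% lower. Mrpl12 was then at 0.35 ± 0.10 (edgeR adjusted p = 0.10) and Mrpl46 at 0.49 ± 0.13 (edgeR adjusted p = 0.076). With the offset, log2 fold change and exon length correlated at 0.42 (Spearman) across the 77 genes. The 39 genes at or under their own median length had a median of 0.05 and the 38 longer ones one of 0.20, whereas without the offset these were 0.15 and 0.15. An offset for exon length alone, tried after the data were seen, left a median of 0.12 and 0 called, against 2.41% of all tested genes higher and 1.84% lower.

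**Figure D3:**
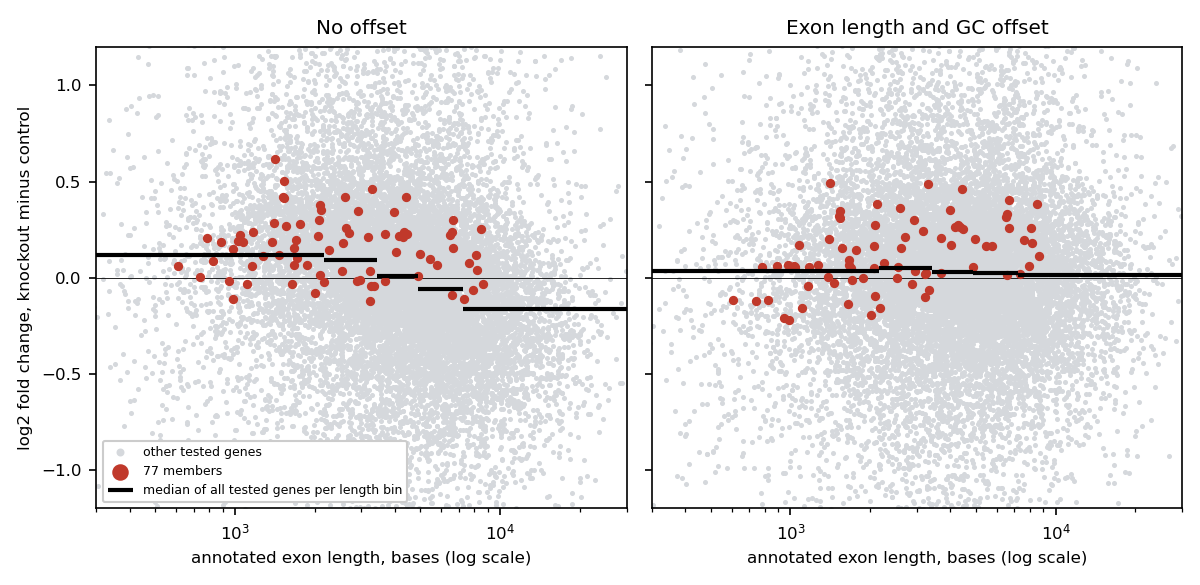
Log2 fold change (y axis) against annotated exon length in bases (x axis, log scale) without (left) and with (right) the exon length and GC offset, for tested genes within the plotted range (grey) and the 77 mitochondrial ribosomal protein genes (red). Black bars are medians of all tested genes per length bin; on the left they fall from 0.12 to -0.16, and on the right they lie between 0.01 and 0.05.

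The genes of the cytosolic ribosome lay on the other side of 0. They are the closest comparison, being also short, with a median exon length of 1781 bases. Of 79 tested, 66 had a log2 fold change below 0, the median was -0.15, and both knockouts lay below all controls in 41 genes and above in 3. None passed the test in either direction with edgeR or limma-voom, while 1 was higher and 15 lower at an unadjusted p under 0.05 and DESeq2 called 1 higher and 5 lower. Their summed level was 4929, 4556 and 4898 CPM in controls and 4121 and 4577 CPM in knockouts, so the groups overlapped. With the exon length and GC offset the median was -0.22. The difference between the cytosolic and the mitochondrial genes was not tested.

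**Figure D4:**
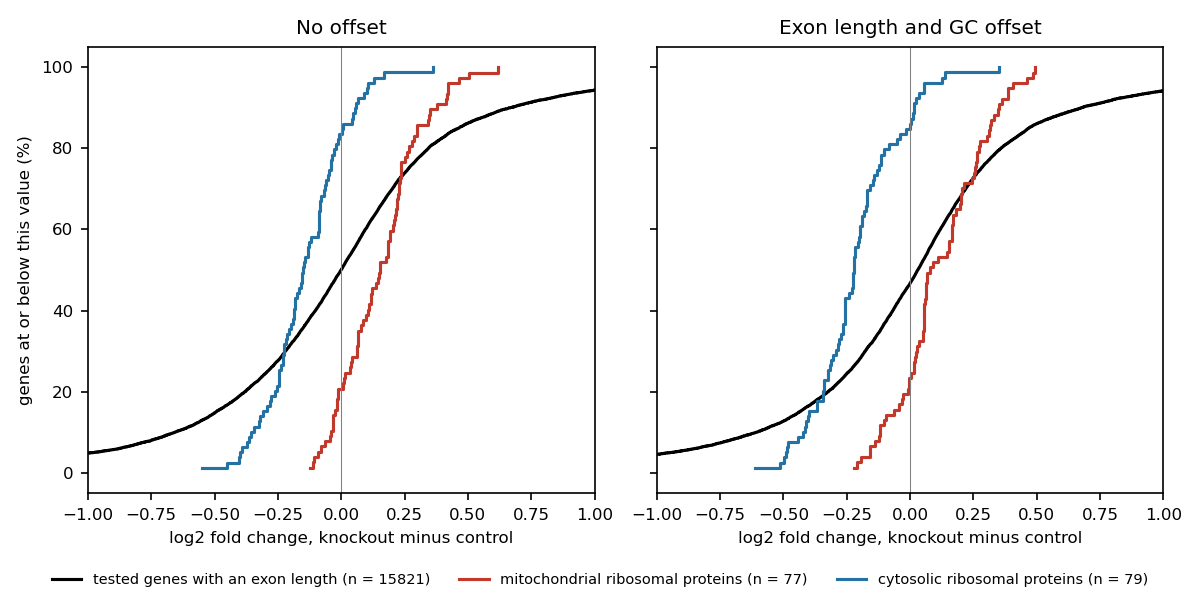
Share of genes (y axis, percent) at or below each log2 fold change (x axis) without (left) and with (right) the exon length and GC offset, for the 15821 tested genes with a known exon length (black), 77 mitochondrial (red) and 79 cytosolic (blue) ribosomal protein genes. The red curve is steep and crosses its middle at 0.15 on the left and at 0.08 on the right, and the blue one at -0.15 and -0.22; the axis ends at 1 on both sides.

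Other genes of mitochondrial gene expression were mostly without calls. The 5 ribosomal proteins with other symbols were at 0.26 ± 0.10 (Aurkaip1), 0.00 ± 0.16 (Chchd1), 0.14 ± 0.11 (Dap3, a GTP-binding small-subunit protein), 0.38 ± 0.23 (Gadd45gip1) and -0.01 ± 0.15 (Ptcd3). Their median was 0.14, and edgeR, DESeq2 and limma-voom called 0 of them, with 1 higher and 0 lower at an unadjusted p under 0.05. The 27 factors that assemble the ribosome or modify its RNA had a median of 0.17 and 0 calls in edgeR and limma-voom, 1 higher in DESeq2, and 1 higher and 0 lower unadjusted. The 12 measured translation factors had a median of 0.01 and 0 calls in edgeR and limma-voom, 1 higher in DESeq2, and 1 higher and 1 lower unadjusted.

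The 20 mitochondrial tRNA synthetases and amidotransferase subunits (Gatb, Gatc and Qrsl1), which charge the tRNAs used by these ribosomes, had a median of -0.15. No tool called any of them, and 0 were higher and 1 lower unadjusted. The 12 genes of mitochondrial DNA upkeep, transcription and RNA stability had a median of 0.16, with 0 calls in any tool and 0 higher and 2 lower unadjusted. Of the 13 protein-coding genes of the mitochondrial genome, whose messages these ribosomes read, 9 were tested, 8 of them were above 0 and the median was 0.26. None was called in any tool or at an unadjusted p under 0.05. The summed level of the 13 genes was 2197, 1441 and 1380 CPM in controls and 1638 and 2376 CPM in knockouts, with overlapping groups and a wide spread within each. It holds almost nothing from the genes not tested. Per library these had 0 to 2 reads (mt-Co2), 2 to 9 (mt-Co3), 1 to 14 (mt-Nd3) and 0 to 8 (mt-Nd4l). By contrast, mt-Co1 had 14366 to 33970. The reason for these low counts was not tested.

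Of 11 regulators of mitochondrial biogenesis, 1 was called higher and 0 lower (1 higher and 1 lower unadjusted, and likewise with DESeq2 and limma-voom). The gene called was Max, the dimer partner of Myc, at 10.1, 14.2 and 16.3 CPM in controls and 25.8 and 25.7 CPM in knockouts (0.93 ± 0.20, edgeR adjusted p = 0.041). The gene lower by the other measures was Gabpb2, a GABP subunit, at -0.73 ± 0.17 (edgeR adjusted p = 0.052), with both knockouts below all controls. Of the other regulators whose motifs are looked up below, named for those motifs and not by p, Nrf1 was at 0.14 ± 0.08, Gabpa at -0.18 ± 0.09, Gabpb1 at -0.08 ± 0.09, Yy1 at 0.07 ± 0.13 and Myc at 0.23 ± 0.17, and these 5 did not pass.

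Promoter sequences were compared because genes of this family are known to share motifs near their start sites. RefSeq promoters (GRCm38.p6, 250 bases before to 50 bases after the start) were found for 69 of the 78 genes. The background was 27025 genes, which were not limited to the tested ones and not matched for level. Each motif was searched on both strands. The motif of nuclear respiratory factor 1 (NRF1, shown in capitals in the windows below) was in 13 of the 69, or 18.8%, against 5.19% of all promoters. The ETS-family motif bound by GABP (CCGGAAGT) was in 12, or 17.4%, against 4.31%, and the YY1 motif (AAGATGGCG) in 8, or 11.6%, against 1.64%. The Sp-family motif GGGCGG was in 49.3% against 38.2%, and CCAAT in 39.1% against 41.1%. CACGTG was in 7.25% against 8.09%, and the TATA box TATAAA in 7.25% against 15.7%. Of 164 matches, 0 pairs of different motifs shared a base.

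The motifs were found at both ends of the range of changes, as a few windows show. They are printed 5′ to 3′ on the strand of the gene, with the motif in capitals. The first 4 hold the NRF1 motif and the last 2 the ETS motif, and they were chosen as windows of genes that rose or had the largest estimates and of genes with the lowest ones.
Mrpl12 (chr11:120484546-120484575, plus strand, log2 fold change 0.50): tattgtctccGCGCCTGCGCgtcgcaccgc
Mrpl45 (chr11:97315586-97315615, plus strand, 0.42): gaagcctcctGCGCAGGCGCagctggctct
Mrpl45 (chr11:97315668-97315697, plus strand, 0.42): tggtttcattGCGCACGCGCgaacccactg
Mrpl30 (chr1:37890384-37890413, plus strand, -0.12): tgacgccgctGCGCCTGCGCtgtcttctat
Mrpl43 (chr19:45006436-45006465, minus strand, 0.42): caaccccggaaCCGGAAGTcaccggttagt
Mrpl27 (chr11:94653725-94653754, plus strand, -0.11): gtccgcaagacCCGGAAGTagatctatccc
In Mrpl12 the first base of the motif is at -81 from the RefSeq start site and in Mrpl30 at -83, read on the strand opposite to the gene in both. Among the 69 genes the median log2 fold change was 0.07 with and 0.18 without the NRF1 motif, 0.15 with and 0.15 without the ETS motif, and 0.09 with and 0.15 without the YY1 motif. A match is a description of the letters in these windows.

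Shared start regions are common among these genes. A protein-coding neighbour that starts within 1000 bases and is read in the opposite direction was found for 21 of the 78 genes, or 26.9%, against 9.98% of 13879 tested coding genes. Counted once for each gene of the family, 20 such pairs had both genes tested. In them the median log2 fold change was 0.18 for the mitochondrial ribosomal gene and -0.03 for its neighbour. Both medians are without the exon length and GC offset, and the part of exon length in their difference was not tested. Of the neighbours, 1 was called higher, which is Mrpl46 as the neighbour of Mrps11, and 1 lower, Pnpla7, a lysophospholipase gene next to Mrpl41, at -0.64 ± 0.13 (edgeR adjusted p = 0.038). Mrpl41 itself was at 0.18 ± 0.15.

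In 1 pair both genes belong to the family, Mrpl46 and the small-subunit gene Mrps11, which was named after its values were seen. The start sites of their principal coding transcripts lie 30 bases apart on chromosome 7, and the bases between them, printed on the plus strand because both transcripts are read away from them, are these.
Mrpl46 and Mrps11 gap (chr7:78783090-78783118, GRCm38.p6): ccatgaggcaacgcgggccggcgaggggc
Mrpl46 rose, as given above, while Mrps11 stood at 10.3, 10.5 and 11.7 CPM in controls and 11.6 and 9.76 CPM in knockouts (-0.02 ± 0.14). The log2 ratio of Mrpl46 to Mrps11 was 0.06, 0.20 and -0.17 in controls and 0.55 and 0.80 in knockouts, a difference of 0.65 in means, given without a test because the pair was picked for it. A longer annotated form of Mrpl46 reaches into Mrps11, and 12.23% of the exon bases of Mrpl46 lie in both genes, so reads from that stretch cannot be assigned to one of them.

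**Figure D5:**
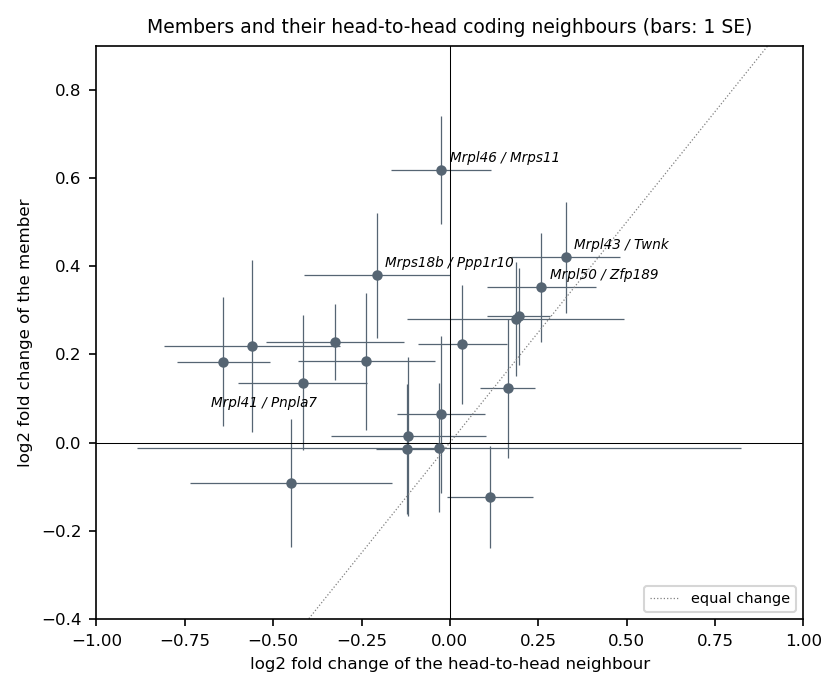
Log2 fold change of a mitochondrial ribosomal protein gene (y axis) against that of its head-to-head coding neighbour (x axis) for pairs with both genes tested, with the pair of Mrpl46 and Mrps11 drawn once; bars are 1 SE and the dotted line marks equal change. Mrpl46 lies highest, at 0.62, with its neighbour Mrps11 at -0.02, and Mrpl41 lies at 0.18 with Pnpla7 at -0.64.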

How the data were processed

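The authors deposited 1 table of raw counts, with Ensembl genes in rows and libraries in columns, per the file headers. Full-length cDNA was amplified from 4 ng of RNA with SMART-Seq v4, cut with Nextera XT and read as single 50-base reads, per the labels' protocols. Per the submitters' processing notes the tools were HTSeq 0.6.1, TopHat2 2.0.14, bcl2fastq 2.17.1.14 and Bowtie2 2.1.0, with build mm10. The sources used here do not give the counting settings. Identifiers were matched to GENCODE M21 for 27648 of 27843 genes, and positions and lengths are on mm10.

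Genes passing filterByExpr (minimum count 10) went into edgeR 4.0.16 under R 4.3.3 (TMM, robust quasi-likelihood F test, Benjamini-Hochberg adjustment over 15874 genes). CPM were computed on TMM-scaled library sizes, and SEs from the fold change and its F statistic. The test was checked on simulated counts. The gene family, the companion lists and the tests were chosen with earlier results of these data known. Genes named are those past the threshold, the 6 largest rises and falls, the 3 highest and lowest levels per kilobase, and a set picked by role. Alternatives were RLE factors, library totals, no filter, 10 CPM in 2 libraries, DESeq2 1.42.0, limma-voom 3.58.1, no robust estimation, an exon length and GC offset (loess, span 0.5), the replicate number as a block, both together, and each library left out. Offsets for exon length alone and for transcript length and GC were added after the data were seen. RefSeq promoters were matched by symbol. Those of Mrpl13, Mrpl15, Mrpl19, Mrpl38, Mrpl4, Mrpl54, Mrps28, Mrps34 and Mrps35 were not used here, nor was Mtres1 of the translation factors.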

Additional observations from a re-analysis of the deposited data

How the results depend on the processing

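The 2 calls rest on small margins. Of the mitochondrial ribosomal protein genes, RLE factors, library totals, limma-voom and edgeR without robust estimation each called 2, no filter called 3 of 78, a filter of 10 CPM in 2 libraries 4 of 57 and DESeq2 7. The exon length and GC offset, the offset for exon length alone, and the offset for transcript length and GC each called 0, as did the replicate block with and without the offset, and leaving out 1 library gave 0 to 3. Over all tested genes the count was 1150 (516 higher and 634 lower). It was 2720 with DESeq2, 712 with the exon length and GC offset (410 higher and 302 lower), 675 with exon length alone and 684 with transcript length and GC, and it ran from 11 to 1736 with 1 library left out. The median log2 fold change of 0.15 stayed above 0 in every alternative run: it was 0.078 with the exon length and GC offset, 0.068 with transcript length and GC, and 0.13 to 0.18 with 1 library left out. With the replicate block the median was 0.14, and with block and offset 0.12. Under the replicate block 0 genes of the table passed, and 3 with the offset as well, and Mrpl12 was at 0.52 (adjusted p = 0.19) and Mrpl46 at 0.58 (adjusted p = 0.20). Whether the numbers pair the samples cannot be told from these libraries. Deviations of same-numbered libraries correlated at 0.05 and -0.04, over only 2 pairs. With 2 knockouts, their deviations from the group mean mirror each other, so these values cannot decide it. Estimates near 0 changed sign, none of them past the threshold. With the exon length and GC offset Mrpl13 was at 0.061, Mrpl33 at 0.017, Mrpl42 at 0.023 and Mrps5 at 0.015. With the replicate block Mrpl42 was at 0.0055, and with block and offset Mrpl13 was at 0.11, Mrpl33 at 0.012 and Mrpl42 at 0.050. With exon length alone Mrpl13 was at 0.071, Mrpl33 at 0.021 and Mrps5 at 0.017, and with transcript length and GC Mrps5 was at 0.032. With 1 library left out, log2 fold changes ran from -0.055 to 0.11 for Mrpl11, -0.20 to 0.028 for Mrpl21, -0.25 to 0.011 for Mrpl33, -0.051 to 0.0085 for Mrpl42, -0.32 to 0.21 for Mrpl44, -0.099 to 0.049 for Mrpl58, -0.050 to 0.0097 for Mrps16 and -0.21 to 0.0054 for Mrps5. The cause of these shifts was not tested. Without 1 knockout library the lone knockout is assumed to vary like the controls. With a median SE of 0.13, a log2 difference of the size seen in most of these genes is not detectable gene by gene in 3 against 2 libraries.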
